A study of Mus musculus with 2 samples.

Results

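The cytosolic ribosomal protein genes were described in B16 F10 cells, a mouse melanoma line that makes melanin, after a sort into cells of low and of high pigment. They were chosen by symbol: Rpsa, Rplp0, Rplp1, Rplp2, or Rpl or Rps followed by a number and optionally a, x or l, with a mean of at least 10 CPM (counts per 1000000 counts) over both fractions. Of 80 symbols of that form among 32285 genes, 77 passed, 31 of the small and 46 of the large subunit. The 3 others, Rpl3l, Rpl10l and Rpl39l, had at most 1 count in a fraction, below the 3 counts taken as the limit of detection. Level decided membership, but the difference between fractions did not.

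Ribosomes are built from ribosomal RNA and one copy of nearly every ribosomal protein, so cells make these proteins in matched amounts, and copies left unassembled are degraded. Their mRNAs are among the most abundant in a growing cell and start with a run of pyrimidines, the 5′ terminal oligopyrimidine (TOP) tract, through which mTOR and the RNA-binding protein Larp1 set their translation. Several of the proteins have a known second role, such as that of Rpl5 and Rpl11 in binding Mdm2, the ubiquitin ligase that restrains p53.

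Both fractions came from B16 F10 cells grown for 7 days from a sparse seeding of 100 cells per cm2, in DMEM rich in glucose that held fetal bovine serum, with no other agent named. On day 7 the cells were trypsinised and divided by their side scatter, the flow cytometry signal used as the measure of pigment, so granularity and pigment cannot be told apart in the sort. Each fraction gave 1 droplet library that counts the 3′ ends of polyadenylated RNA by unique molecular identifier (UMI). A UMI stands for 1 captured molecule, and whether capture depended on the length of the mRNA was not tested. The line carries its own tumour genome and stands for neither normal melanocytes nor other melanomas.

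The authors' cell table held 1900 low pigment cells with 32437194 UMIs and 2136 high pigment cells with 28848691 UMIs. The median cell had 16019.5 UMIs in the low and 12557 UMIs in the high pigment library. With 1 library per group there is no replicate check and no test: every interval below is a 95% interval of counting error only, and genes are called higher or lower by size alone, where one library had at least 25% more than the other. The libraries shared 0 cell barcode sequences. The 7 melanocyte markers (Mitf, Sox10, Dct, Tyrp1, Tyr, Pmel, Mlana) were all detected and summed to 11243 CPM in the low and 14732 CPM in the high pigment library, of which Dct made up 5856 and 8011 CPM. Pmel (1432 and 1286 CPM) and Tyr (126 and 122 CPM) had ratios below 1. Summed markers of fibroblasts, leukocytes, keratinocytes and erythroid cells stayed at or below 2.84 CPM in either library. Of the 5 endothelial markers, Pecam1 had 22.4 CPM in the low and 2.81 CPM in the high pigment library, and the other 4 had at most 3 UMIs each. Of the Schwann cell markers, Mbp had 154 and 101 CPM, and its part in the results was not tested.

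As a whole, the ribosomal protein genes took about the same share of the transcriptome in both fractions. They made up 20.77% of UMIs (20.76 to 20.79) in the low pigment library and 21.42% (21.40 to 21.43) in the high pigment library, a ratio of 1.031 (1.030 to 1.032). In UMIs per cell the order was the other way round, with a mean of 3547 in the low and 2893 in the high pigment library, which also had fewer UMIs per cell. Fewer molecules per cell and fewer captured molecules cannot be told apart here. The ratio of the shares turned to 0.964 among cells of 10000 to 15000 UMIs and to 0.992 among S phase cells, so its direction depends on which cells are counted.

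Beneath this near-equal sum, single genes differed in both directions. Of the 77 genes, 7 were higher in the high pigment library (9.09%, against 10.9% of the 7849 genes measured) and 4 were lower (5.19%, against 23.4%). The ratio of high to low pigment CPM was above 1 for 43 of the 77 genes and below 1 for 34. Over all measured genes it was above 1 for 3142 and below 1 for 4707. The median log2 ratio was 0.02 over members, against -0.08 over all measured genes. On the log2 scale the members' ratios ran from -0.58 to 0.52 with an SD over members of 0.21. The counts of called members depend on scaling and on which cells are counted. Among cells of 10000 to 15000 UMIs, 2 members were higher (17.5% of all genes) and 10 lower (19.5% of all genes), with a median log2 ratio of -0.08 against -0.01 over all genes. After rescaling so that the typical gene did not differ (median log2 ratio of 0), 12 were higher (15.8% of all genes) and 2 lower (17.3% of all genes). Counting error was small beside the spread over genes: 73 of the 77 intervals left out a ratio of 1, 42 of them above and 31 below. Small subunit genes (4 higher, 1 lower of 31, median 0.04) and large subunit genes (3 higher, 3 lower of 46, median 0.02) had similar medians.

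**Figure D1:**
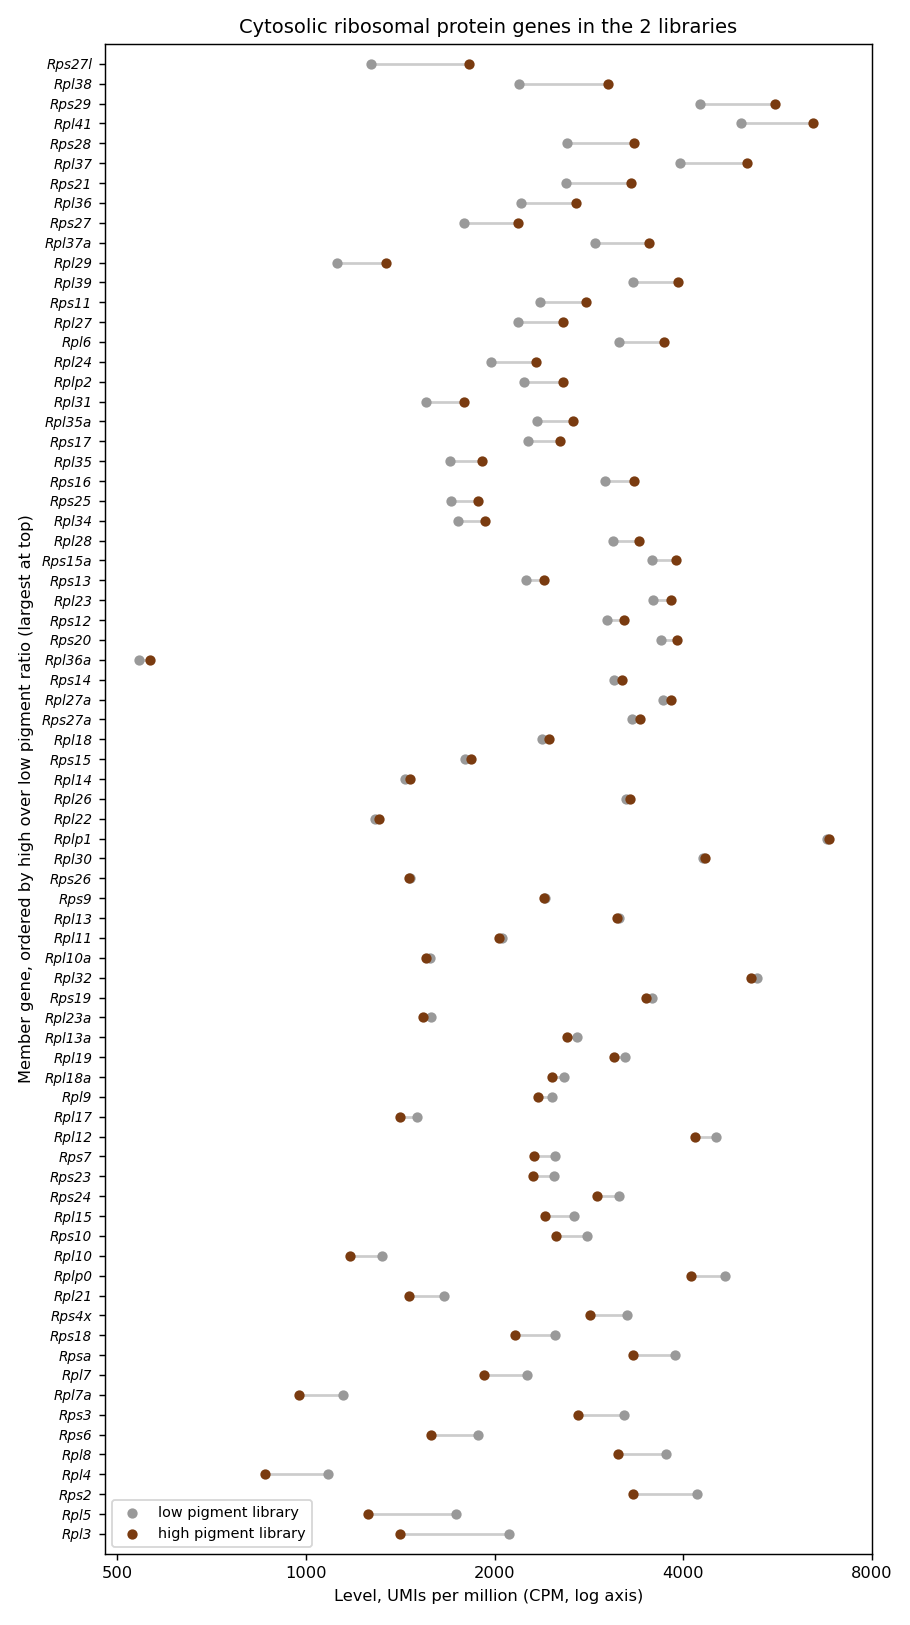
Level of 75 of the 77 ribosomal protein genes in CPM (log axis) in the low pigment (grey) and the high pigment (brown) library, 1 point per library, ordered by ratio. Rps27l, Rpl38, Rps29 and Rpl41 at the top had more in the high pigment library, and Rpl3, Rpl5, Rps2 and Rpl4 at the bottom had less.

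Rps27l had the largest ratio. It encodes a close relative of the small subunit protein Rps27, and its transcription is known to be induced by p53. Its level was 1268 CPM in the low and 1821 CPM in the high pigment library, a ratio of 1.44 (1.42 to 1.45). Its relative Rps27 went from 1787 to 2179 CPM, a ratio of 1.22 (1.21 to 1.23). Both were higher in the high pigment library, but only Rps27l passed the limit, and the counting intervals of the ratios were apart. The coding sequences of the pair (GENCODE transcripts of build GRCm38, without the stop codon) are shown to see how far they can be told apart. Rps27 lies at chr3:90212522-90213651 on the minus strand and Rps27l at chr9:66946086-66949516 on the plus strand. Capitals mark the bases at which they differ.
Rps27: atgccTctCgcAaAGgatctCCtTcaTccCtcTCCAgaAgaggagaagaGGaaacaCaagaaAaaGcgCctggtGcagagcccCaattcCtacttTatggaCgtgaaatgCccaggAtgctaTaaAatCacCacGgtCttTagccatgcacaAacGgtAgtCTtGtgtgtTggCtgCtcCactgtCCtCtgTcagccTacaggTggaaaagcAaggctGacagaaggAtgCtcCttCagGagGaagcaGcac
Rps27l: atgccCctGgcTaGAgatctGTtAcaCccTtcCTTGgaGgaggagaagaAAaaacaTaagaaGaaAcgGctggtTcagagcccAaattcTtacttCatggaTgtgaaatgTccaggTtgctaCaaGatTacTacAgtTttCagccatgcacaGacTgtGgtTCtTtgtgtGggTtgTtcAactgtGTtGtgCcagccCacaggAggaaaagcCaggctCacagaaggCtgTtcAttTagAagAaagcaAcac
The sequences differ at 60 of 252 bases (76.2% identity), and 53 of these are the last base of a codon.

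The other 6 genes with more in the high pigment library also encode small proteins. Rpl38, a large subunit protein that in mice is needed for the normal pattern of the axial skeleton, had 2189.7 CPM in the low and 3032 CPM in the high pigment library, a ratio of 1.38 (1.37 to 1.40). Rps29, a zinc-binding protein of the small subunit head, had 4259 and 5600.5 CPM, a ratio of 1.32 (1.31 to 1.32). Rpl41, the smallest ribosomal protein, had 4954 and 6442 CPM, a ratio of 1.30 (1.29 to 1.31). Rps28, a small subunit protein near the mRNA exit, had 2606 and 3336 CPM (ratio 1.28, 1.27 to 1.29). Rpl37, a zinc-binding large subunit protein, had 3961 and 5063 CPM (ratio 1.28, 1.27 to 1.29). Rps21 of the small subunit had 2598 and 3301 CPM (ratio 1.27, 1.26 to 1.28). Just short of the limit were Rpl36 with 2202 and 2698 CPM (ratio 1.23) and Rpl37a with 2891 and 3525 CPM (ratio 1.22), the latter named after its values were seen. Among cells of 10000 to 15000 UMIs the log2 ratio was 0.57 for Rps27l and 0.34 for Rpl38, still past the limit. It was 0.26 for Rps29, 0.31 for Rpl41, 0.24 for Rps28, 0.21 for Rpl37 and 0.19 for Rps21, all short of it.

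The 4 genes with less in the high pigment library encode larger proteins. Rpl3, which lies beside the peptidyl transferase centre, had 2109 CPM in low and 1412 CPM in high pigment cells, 1.49-fold lower (1.48 to 1.51). Rpl5, which carries the 5S ribosomal RNA into the large subunit, had 1738 and 1257 CPM, 1.38-fold lower (1.36 to 1.40). Rps2, near the mRNA entry of the small subunit, had 4204 and 3324 CPM, 1.26-fold lower (1.254 to 1.275). Rpl4, which lines the exit tunnel of the nascent protein, had 1082 and 860.0 CPM, 1.26-fold lower (1.24 to 1.28). The interval of Rpl4 lay across the limit and that of Rps2 just past it. Next in order were Rpl8 (3752 and 3149 CPM), Rps6 (1880 and 1581 CPM) and Rps3 (3214 and 2722 CPM), which were 1.19-, 1.19- and 1.18-fold lower. Rpl7a followed with 1146 and 973 CPM, 1.18-fold lower.

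Genes whose products work as a unit differed in the size of their ratios. Rpl5 and Rpl11 form one particle with the 5S RNA. Rpl11 had 2052 CPM in the low and 2030.3 CPM in the high pigment library, a ratio of 0.989 (0.978 to 1.00), near 1 where that of Rpl5 was well below it. Among cells of 10000 to 15000 UMIs the log2 ratios were -0.18 for Rpl11 and -0.54 for Rpl5. Among the stalk proteins, which recruit the GTPases of translation, Rplp0 had 4668 and 4117 CPM (1.13-fold lower). Rplp1 had 6788 and 6849 CPM (ratio 1.01). Rplp2 had 2229 and 2573 CPM (ratio 1.15). Rplp0 is the scaffold on which Rplp1 and Rplp2 sit. Rpsa, also known as the laminin receptor, had 3886 and 3328 CPM (1.17-fold lower). Rps6, the small subunit protein phosphorylated by S6 kinases downstream of mTOR, is given above. Rps27a, made as a fusion with ubiquitin, had 3315 and 3408 CPM (ratio 1.03).

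Paralogues were compared where both were counted. Rpl39 had 3325 CPM in the low and 3932 CPM in the high pigment library (ratio 1.18), while its relative Rpl39l had 1 UMI in the low and 0 in the high pigment library. Rpl3l and Rpl10l, known from muscle and from the male germ line, likewise had 1 UMI or none in each library, beside their relatives Rpl3 and Rpl10 at 1176 CPM or more. Rpl22 had 1287 and 1305 CPM (ratio 1.01) and its relative Rpl22l1 had 510 and 508 CPM. Rpl36a had 542 and 564 CPM (ratio 1.04) and Rpl36al had 763 and 883 CPM (ratio 1.16). Rpl7 had 2254 and 1926 CPM (1.17-fold lower) and Rpl7l1, a nucleolar relative, 124 and 93.8 CPM (1.33-fold lower). The genes that the naming rule leaves out lay in the same range. Rps3a1 had 3616 and 3119 CPM (1.16-fold lower) and Fau, which encodes the small subunit protein eS30, 2085 and 2225 CPM.

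The difference between the libraries followed the length of the coding sequence. Over the 77 genes, Spearman's rho between the log2 ratio and coding length was -0.77, a description across genes measured in the same 2 libraries, and the line through the points fell by 0.25 on the log2 scale for each doubling of length. The 26 shortest genes, of 75 to 399 coding bases, included all 7 higher genes: 24 of them had a ratio above 1, with a median log2 ratio of 0.20. The 25 genes in the middle, of 405 to 552 bases, had a median of 0.03, and none was past the limit. The 26 longest, of 564 to 1257 bases, included all 4 lower genes: 21 of them had a ratio below 1, with a median of -0.16. The groups were cut at these lengths after the pattern had been seen. The shortest group took 7.11% of UMIs in the low and 8.21% in the high pigment library, and the longest 6.91% and 6.33%. The order held in each cell cycle phase taken alone, with rho of -0.78 in G1, -0.75 in S and -0.76 in G2M cells.

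**Figure D2:**
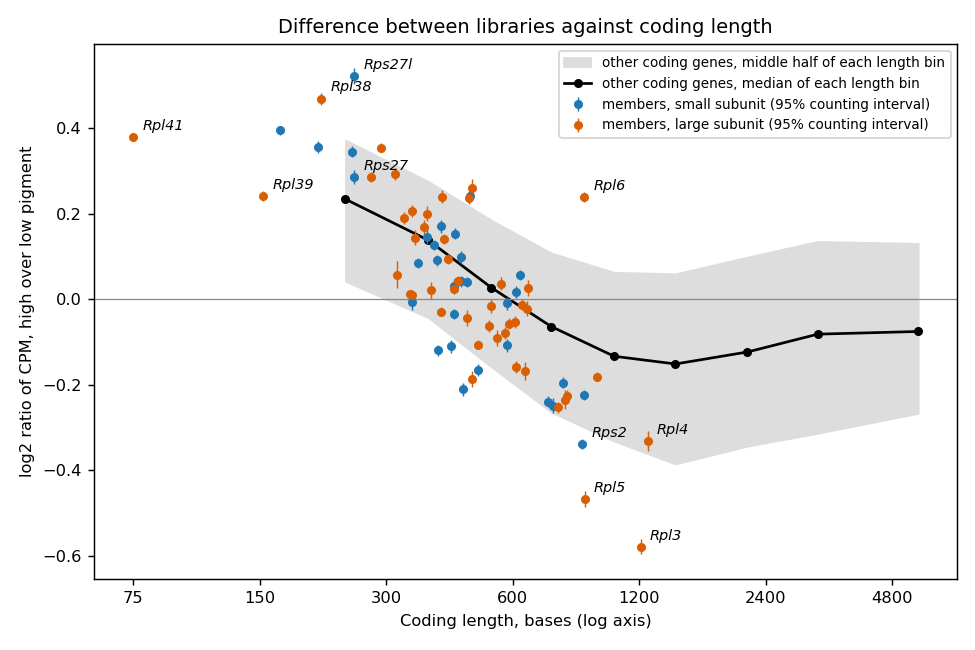
log2 ratio of CPM, high over low pigment, against coding length in bases (log axis) for 77 ribosomal protein genes (points with 95% counting intervals, blue for the small and orange for the large subunit) and for other coding genes (black line: median of each length bin; grey band: 25th to 75th percentile). The points descend from 0.38 for Rpl41 and 0.52 for Rps27l among the shortest genes to -0.58 for Rpl3, and the black line descends from 0.23 to -0.15.

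A few genes stood off this line, and they were named after their values were seen. Rpl6, with 888 coding bases among the longest, had 3164 CPM in the low and 3734 CPM in the high pigment library (ratio 1.18). Rps24, with 399 bases, had 3161 and 2910.0 CPM (1.09-fold lower). Rpl6 lay furthest off, 0.45 (log2) above the line at its length, and Rpl41 next, 0.31 below it, although its own ratio was above 1. Rps27l lay 0.28 above the line, and Rpl3 and Rpl5 lay 0.26 and 0.25 below it. The ratio followed the number of exons, which goes with length, less closely (rho -0.58), and it was hardly related to the GC content of the coding sequence (rho 0.03) or to the mean CPM (rho 0.15).

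The same order appeared outside the family, with a smaller slope over all lengths. The slopes and values of rho cover unlike ranges, since many other genes are longer than the longest member (1257 bases). Over 7640 other coding genes rho was -0.13. Their median log2 ratio was 0.23 for 196 genes of up to 300 coding bases, 0.14 for 424 genes of up to 450, and 0.03 for 556 genes of up to 600. It was -0.06 up to 900 bases, -0.13 up to 1200 and -0.15 up to 1800, and came back to -0.08 in the longest genes. The 10 ribosomal protein genes of up to 300 bases had log2 ratios of 0.24 to 0.52, at or above the median of other genes of that length. Rpl3, Rpl5 and Rps2 lay below the 25th percentile of other genes of their length. The summed UMIs of the 26 shortest over the 26 longest genes came to 1.03 in the low and 1.30 in the high pigment library. In barcodes outside the authors' table the quotient lay between 1.01 and 1.17 in the low and between 1.27 and 1.44 in the high pigment library, leaving aside 5 high pigment barcodes that held 788 member UMIs in all (1.88). The quotient moved with mitochondrial RNA inside each library. Over cells its Spearman's rho with the mitochondrial percent was 0.23 in 1900 low and 0.20 in 2136 high pigment cells, and in barcodes of 10 to 50% mitochondrial UMIs it was 1.11 and 1.44. The median mitochondrial percent of the table's cells was 5.62 in the low and 5.07 in the high pigment library, and the part of RNA quality in the difference was not tested. With 1 library per fraction, pigment and library preparation cannot be told apart for this order by length.

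Single cells showed the same picture, with the share of the family alike and its makeup shifted. Every cell was thinned to 7500 UMIs, and no cell was shallower. The family's share of a cell's UMIs had a median of 20.8% in both libraries (20.8% in both without thinning), with 25th and 75th percentiles of 18.9 and 22.8% in the low and of 18.9 and 22.9% in the high pigment library. In the high pigment library 49.6% of cells had a share larger than the low pigment median. The upper tail was longer in the high pigment library, where 9.32% of cells lay above 25.3%, the 95th percentile of the low pigment cells. By contrast, the quotient of short over long genes had a median of 1.02 in low and 1.28 in high pigment cells. For this quotient, 92.6% of the high pigment library's cells exceeded the low pigment median, and 55.8% exceeded the low pigment 95th percentile of 1.24. Cells of 1 library are not replicates of the sort, so these percentages of cells describe the libraries only and carry no interval.

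**Figure D3:**
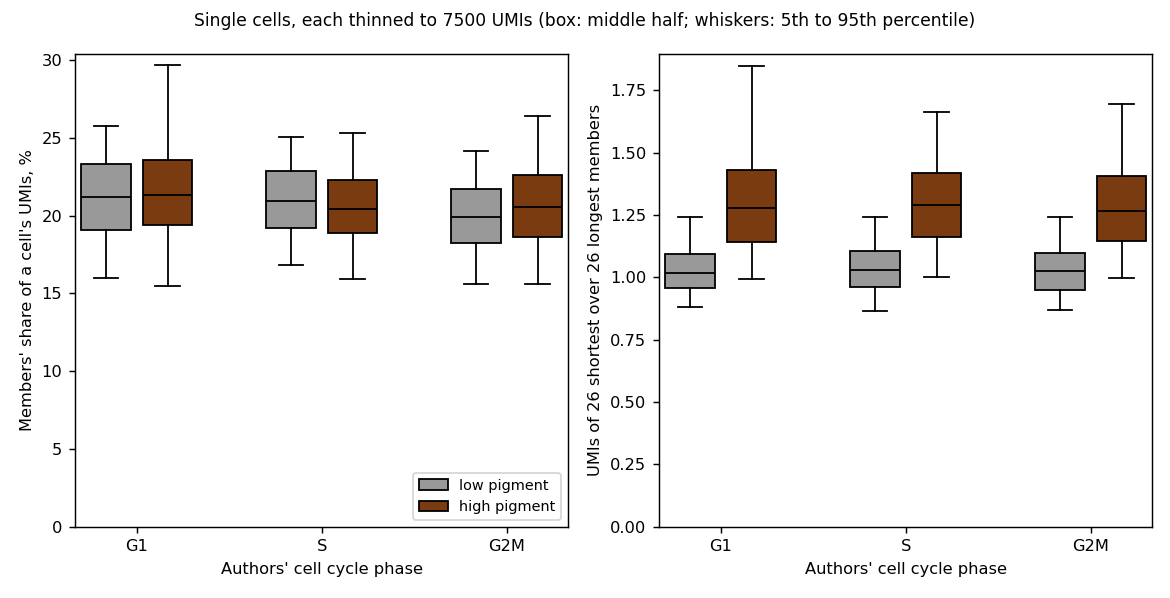
Per cell, thinned to 7500 UMIs: the family's share of UMIs in percent (left) and the UMIs of the 26 shortest over those of the 26 longest genes (right), by the authors' phase for low pigment (grey) and high pigment (brown) cells; boxes span the 25th to 75th percentile, lines are medians and whiskers reach the 5th and 95th percentiles. The medians on the left lie between 19.9 and 21.3%, and those on the right at 1.02 to 1.03 in low and 1.26 to 1.29 in high pigment cells.

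Across the cell cycle the family was nearly level. Phases were those the authors assigned, and within a library the cells of different phases came from the same culture and droplet run. No member was past the limit of 25% between S and G1 cells in either library, where 14.1% of all measured genes were higher and 11.4% lower in the low pigment library, and 16% and 7.4% in the high pigment library. None was past it between G2M and G1 cells, against 15.7% higher and 9.07% lower of all genes in the low pigment library and 12.4% and 4.13% in the high pigment library. The shares of all genes were not matched for level. They include genes down to a mean of 10 CPM, whose counting error is larger than that of the members. In the low pigment library the family's share of UMIs was 21.18% in G1, 21.02% in S and 19.96% in G2M cells. In the high pigment library it was 22.3% in G1, 20.8% in S and 21.1% in G2M cells. The differences were small. From G1 to G2M, 69 of 77 genes were lower in both libraries and 0 were higher in both. From G1 to S, 50 were lower and 3 were higher in both libraries, and 24 went opposite ways. Such directions were not counted over all genes. The members' median log2 ratio of G2M over G1 was -0.09 in the low and -0.07 in the high pigment library, against 0.02 and 0.05 over all genes. That of S over G1 was -0.01 and -0.09, against -0.03 and 0.02 over all genes. G2M cells also held more UMIs each, with a median of 20280 against 13817 in G1 in the low pigment library and 14087 against 10466 in the high, and the part of depth in these small shifts was not tested.

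Some members moved more than others with phase, on the log2 scale and averaged over both libraries. From G1 to S the lowest were Rpl7a (-0.18), Rpl30 (-0.13), Rps9 (-0.12) and Rps26 (-0.11), and the highest were Rpl14 (0.05), Rplp1 (0.03), Rpl21 (0.03) and Rpsa (0.03). From G1 to G2M the lowest were Rps26 (-0.18), Rpl7a (-0.17), Rpl10 (-0.14) and Rpl38 (-0.14). Rps26, a small subunit protein that contacts mRNA upstream of the start codon, had 1595 CPM in G1, 1453 in S and 1336 in G2M cells of the low pigment library. In the high pigment library it had 1531, 1434 and 1428 CPM. Rpsa, Rps20 and Rps15, all of the small subunit, were among the highest, with means between -0.003 and 0.01. The changes with phase had no common relation to length: rho with coding length was -0.08 and -0.07 in the low pigment library and 0.39 and 0.58 in the high pigment library, for S and G2M over G1.

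Between the fractions, 30 members had a ratio above 1 in all 3 phases, 26 had one below 1 in all 3 and 21 were mixed. These directions were not counted over all genes. The members' median log2 ratio was 0.04 in G1, -0.02 in S and 0.07 in G2M cells, against -0.09, -0.05 and -0.09 over all genes. In G1 cells 10 members were higher and 3 lower (12.4% and 25.8% of all genes). In S cells 2 were higher and 3 lower (13.6% and 22.3% of all genes), and in G2M cells 9 were higher and 2 lower (11.3% and 25.8% of all genes). Fewest members were called higher in S cells, and the family's summed ratio was also lowest there. For Rps27l the log2 ratio was 0.58 in G1, 0.55 in S and 0.47 in G2M cells. In the low pigment library it had 1299.9 CPM in G1, 1244 in S and 1263 in G2M cells, and in the high pigment library 1948, 1816 and 1744 CPM. Rpl3 had 2117, 2165 and 2025 CPM in the low and 1413, 1422 and 1406 CPM in the high pigment library. For both genes, every phase of one library lay apart from every phase of the other.

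**Figure D4:**
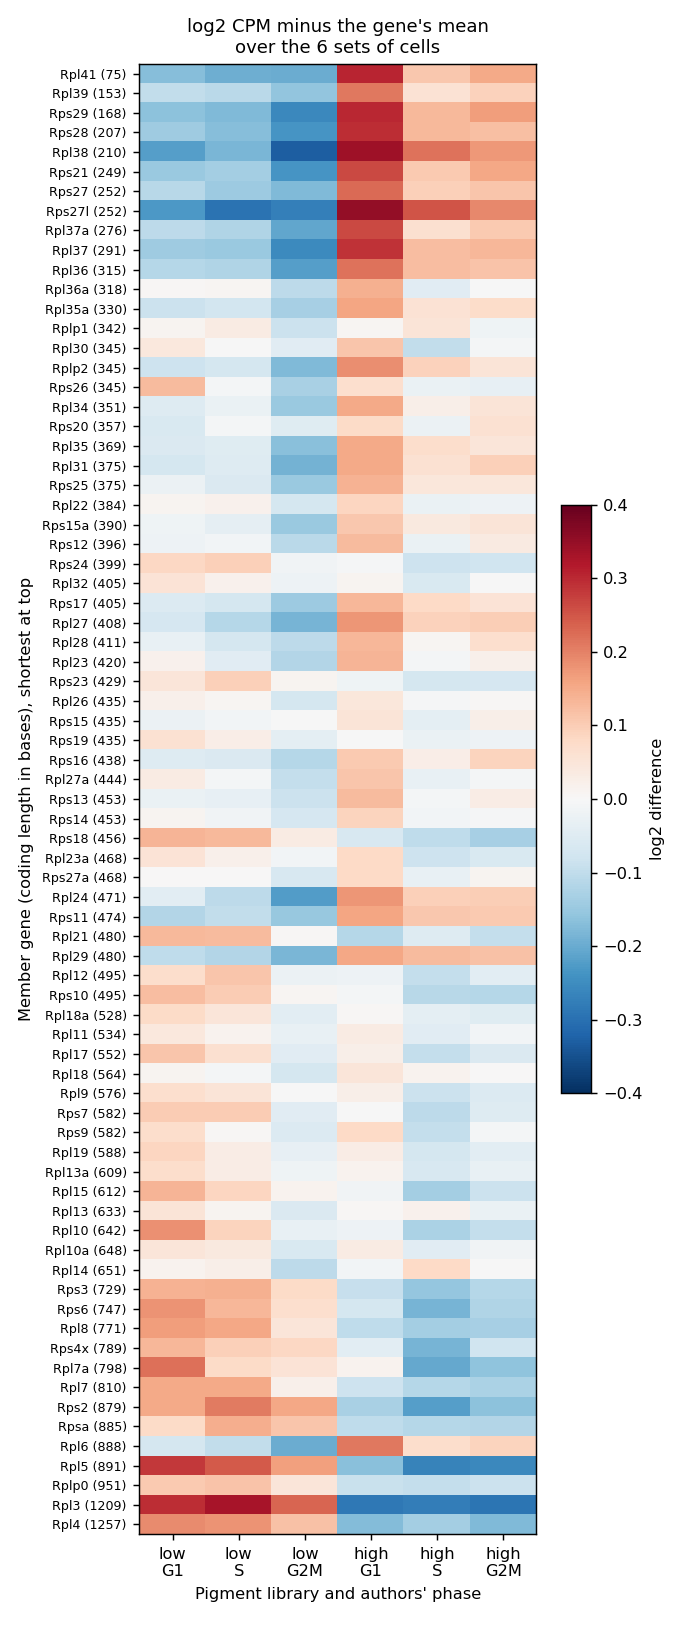
log2 CPM of 75 of the 77 genes, each minus its mean over the 6 sets of cells (low and high pigment library, each in G1, S and G2M), with genes ordered by coding length from 75 bases at the top to 1257 at the bottom. The top rows are blue in the 3 low pigment columns and red in the 3 high pigment columns, and most of the bottom rows are the reverse, with Rpl6 (888 bases) an exception.

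The authors' 4 clusters divided the cells first by library. Cluster 0 held 1520 high and 36 low pigment cells, cluster 3 held 523 and 19, cluster 1 held 1023 low and 48 high pigment cells, and cluster 2 held 822 and 45. The clusters were made from these same cells and genes, so the values are a description. The family's share of UMIs was 21.8% in cluster 0, 21.1% in cluster 1, 20.4% in cluster 2 and 20.3% in cluster 3. The widest ranges over clusters were those of Rpl3 (1.53-fold), Rps27l (1.502-fold), Rpl5 (1.45-fold) and Rpl38 (1.43-fold). Rpl3 had 1385 CPM in cluster 0 and 1529 in cluster 3, against 2126 in cluster 1 and 2082 in cluster 2. Rps27l had 1877 CPM in cluster 0 and 1651 in cluster 3, against 1271 in cluster 1 and 1249.7 in cluster 2. The few high pigment cells that fell into cluster 1 had 1596 CPM of Rpl3 and 1316 CPM of Rps27l, and those in cluster 2 had 1555 and 1456 CPM, beside 2099.7 and 1243 CPM in the low pigment cells of cluster 2. The few low pigment cells in cluster 0 had 1702 CPM of Rpl3 and 1825 CPM of Rps27l, and those in cluster 3 had 1617 and 1399 CPM. Within a library 0 members were past the limit, either between clusters 2 and 1 of the low pigment library (13.5% of all genes higher, 8.03% lower) or between clusters 0 and 3 of the high pigment library (10.5% and 14.7%). These shares of all genes, too, were not matched for level. Smaller differences between these clusters also went with coding length. For cluster 0 over cluster 3 of the high pigment library rho was -0.55 over members and -0.15 over other coding genes. The members' median log2 ratio there was 0.13 in the shortest and 0.03 in the longest group. For cluster 2 over cluster 1 of the low pigment library rho was -0.32 and 0.04, with medians of -0.04 and -0.07. The cause was not tested.

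Within the high pigment library the family's share was higher in deeper cells. From cells of under 10000 UMIs to cells of over 20000 it was 20.2%, 20.2%, 20.5%, 21.8% and 24.6% in 5 bins. In the low pigment library the same bins had 20.4%, 20.7%, 21.3%, 20.7% and 20.6%. Over cells, Spearman's rho between the thinned share and UMIs per cell was 0.28 in 2136 high pigment cells and -0.06 in 1900 low pigment cells, each within 1 library. The same order was seen in every phase of the high pigment library: from the shallowest to the deepest cells the median thinned share went from 20.6 to 25.6% in G1, from 19.97 to 23.9% in S and from 19.4 to 23.3% in G2M. A set of 217 G1 cells of cluster 0 in that library had a median share of 23.5%, a median quotient of short over long genes of 1.39 and a median of 16219 UMIs. The 466 G1 cells of cluster 3 had 20.6%, 1.24 and 9626 UMIs. Scrublet marked 18 low and 15 high pigment cells as doublets, and leaving them out again gave 7 genes higher and 4 lower. Whether other deep cells hold more than 1 cell was not tested.

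**Figure D5:**
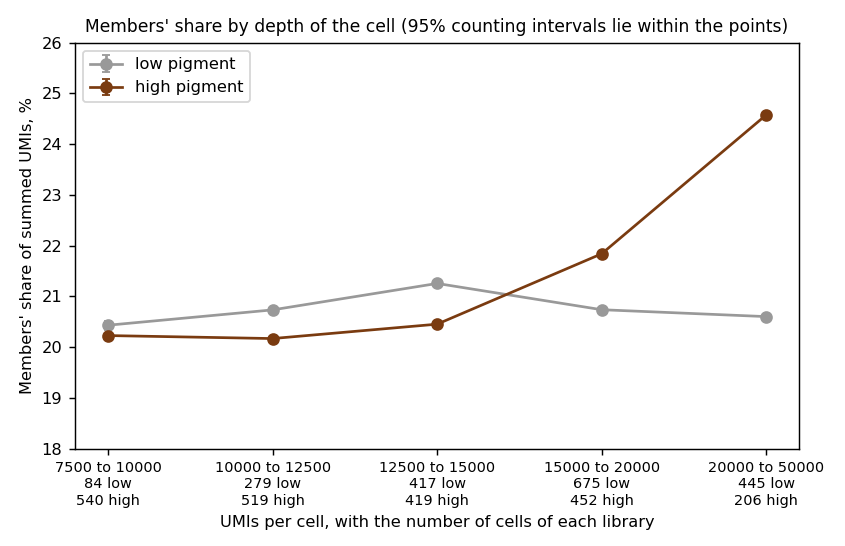
The family's share of summed UMIs in percent (vertical axis, from 18 to 26%) by UMIs per cell in 5 bins, for the low pigment (grey) and the high pigment (brown) library, with the number of cells of each below. The brown line climbs from 20.2% to 24.6% and the grey line stays between 20.4% and 21.3%.

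From cell to cell the members varied more than other genes and mostly together. The variance over the mean of thinned counts had a median over members of 1.75 in low and 1.99 in high pigment cells, against 1.12 and 1.15 over other genes of at least 100 CPM. The members are more abundant than most of those genes, and the measure grows with abundance. Pearson's correlation over cells between a member and the sum of the rest had a median of 0.45 in the low and 0.50 in the high pigment library. It was 0.60 and 0.71 for Rpl30, among the highest, and lowest, on the mean of both libraries, for Rps27l (-0.01 and 0.23). Cells share a library and a fixed total of UMIs, so these values describe the libraries. In the high pigment library several members had lower values than Rps27l, the lowest being Rps26 (0.02) and Rpl4 (0.03). Among 1480 other genes of at least 100 CPM, those whose share followed the family's most closely were Fau (mean r 0.53), Rps3a1 (0.52), the noncoding TOP gene Gas5 (0.42), the elongation factor gene Eef1b2 (0.41) and Tpt1 (0.38). Fau and Rps3a1 encode ribosomal proteins that the naming rule leaves out.

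Other TOP genes, which share the tract but encode translation factors and related proteins, had lower values in the high pigment library than the family. Of 20 such genes 0 were past the limit upward and 8 downward (10.9% and 23.4% of all genes), and the median log2 ratio was -0.23. The smallest ratios were those of the elongation factor subunit Eef1g (924 and 638 CPM, 1.45-fold lower), the ribosome-bound scaffold Rack1 (1959 and 1452 CPM, 1.35-fold lower) and the initiation factor Eif4b (170 and 127 CPM, 1.34-fold lower). Among the largest were those of Fau, given above, and of Btf3 (868 and 877 CPM). The coding lengths of these lists differ from those of the family, and their part was not tested.

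Among 11 regulators of TOP translation and of p53 surveillance outside the family, 2 were higher and 2 lower (18.2% each, against 10.9% and 23.4% of all genes). Eif4e, the cap-binding factor, had 124 and 168 CPM (ratio 1.35), its inhibitor Eif4ebp1 had 462 and 607 CPM (ratio 1.31), and Larp1 had 115 and 143 CPM (ratio 1.24). Pdcd4, an inhibitor of the helicase Eif4a, had 51.3 and 36.5 CPM (1.40-fold lower). Mtor had 19.1 and 14.5 CPM (1.32-fold lower) and Rptor, its partner, 20.5 and 16.6 CPM (1.24-fold lower). These are mRNA levels and say nothing of mTOR activity. Of 78 genes of mitochondrial ribosomal proteins, 12 were higher (15.4%, against 10.9% of all genes) and 6 were lower (7.69%, against 23.4%), and their median log2 ratio was 0.10 against -0.08 over all genes. The ends of that list were Mrps6 (159 and 215 CPM), Mrpl55 (56.5 and 74.6 CPM) and Mrps18c (83.5 and 109.95 CPM) at the top, and Mrps27 (21.8 and 13.9 CPM), Mrps22 (35.0 and 23.5 CPM) and Mrps9 (55.9 and 38.2 CPM) at the bottom.

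Pyrimidine runs near the listed start can be read from the RefSeq promoter table (GRCm38.p6), which held 57 of the 77 genes. The longest unbroken run of C and T between 20 bases before and 50 bases after the listed start had a median of 10 bases, against 6 over all 27025 genes of the table. Runs of at least 8 bases were found in 44 of the 57 genes (77.2%), against 25.4% of all genes. The motif CTTTC was found on the sense strand in 28 (49.1%, against 8.85% of all genes) and on the opposite strand in 5 (8.77%, against 8.66%). Windows of 30 bases around the run as found in that stretch, 5′ to 3′ on the gene's strand with the run in capitals, are shown for the called genes that the table held, since these differed most between the fractions.
Rps27l, chr9:66946063-66946092: actcctctccaCTCCTCCCCgccgcctcta
Rpl38, chr11:114668568-114668597: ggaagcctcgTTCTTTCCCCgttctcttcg
Rpl41, chr10:128549119-128549148: cgccattaaatagcagtaggCCTCCCTCTC
Rps28, chr17:33824566-33824595: ctgtcccgaggatTCCTgggtaccgcgtgc
Rpl37, chr15:5116631-5116660: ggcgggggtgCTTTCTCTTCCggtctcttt
Rps21, chr2:180257399-180257428: ggaggcacgagctaCTTCCTTTCTgcgctc
Rpl4, chr9:64173405-64173434: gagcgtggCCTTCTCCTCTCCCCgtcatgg
Rps2, chr17:24720083-24720112: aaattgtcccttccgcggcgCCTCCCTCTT
Rpl5, chr5:107900497-107900526: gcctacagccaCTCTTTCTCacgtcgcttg
Runs of 9 bases or more were present both in genes with more (Rps27l, Rpl38, Rpl41, Rpl37, Rps21) and in genes with less (Rpl4, Rps2, Rpl5) in the high pigment library, and Rps28 had a run of 4 bases in this stretch. The run of Rps28 began at the first base searched and continues upstream of it, and those of Rpl41 and Rps2 ended at the last. Counted from the listed start, the runs began at -12 in Rps27l, -2 in Rpl38, 41 in Rpl41, -20 in Rps28, 29 in Rpl37, 35 in Rps21, 27 in Rpl4, 41 in Rps2 and -20 in Rpl5. Most thus lay away from the listed start and are not shown to be TOP tracts. A run is a description of these letters and of the listed start, which need not be the start used in these cells.

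Ribosomal protein genes have many near-identical copies, and the sources used here do not say how reads that fit more than 1 of them were treated. Only the 32285 genes counted were searched, so copies elsewhere in the genome would be missed. Copies with at least 95% identity over at least 80% of the coding sequence were found for 11 members, 13 copies in all. For 8 of these members the copies held under 1% of the member's UMIs. The exceptions were BC004004, a copy of Rpl21 (3.32%), Gm2000, a copy of Rpl35 (2.71%), and Gm10076, a copy of Rpl41 (17.4%). Gm10076 holds the whole coding sequence of Rpl41, which lies at chr10:128548114-128549305 on the minus strand and is printed because no read of the coding part can tell the genes apart.
Rpl41: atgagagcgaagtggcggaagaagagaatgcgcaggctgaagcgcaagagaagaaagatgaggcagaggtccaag
Gm10076 had 837 CPM in the low and 1155 CPM in the high pigment library, a log2 ratio of 0.46 beside 0.38 for Rpl41. The level of Rpl41 is therefore uncertain. The copy's ratio pointed the same way, but its counts may be reads of Rpl41, so it is not an independent check.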

How the data were processed

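Gene expression was measured in 2 single-cell libraries. The deposited matrix gives, for each gene and barcode, UMI counts from Cell Ranger 6.1.2 on mm10, per the submitters' processing notes. It pools both libraries, and the sources used here do not say whether their depths were made equal. The authors' deposited cell table lists for every cell its UMI count, the percent of mitochondrial and ribosomal UMIs, S and G2M scores, a phase and a cluster. Its 4036 cells were used, 0 columns lacked a sample, and UMIs per cell in table and matrix differed by at most 17.

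Counts were summed per library over these cells, or over a phase or cluster, and divided by all UMIs (CPM). Intervals at 95% are exact Poisson for CPM, conditional binomial for ratios and Clopper-Pearson for shares, and cover counting error only. A gene counted as measured at a mean of 10 CPM. The smallest sum of a member was 16271 UMIs. Calls were made by size alone, where one library had at least 25% more. Cells were thinned to 7500 UMIs without replacement. Doublets were marked with Scrublet in scanpy 1.11.5, at 0.947% of low and 0.702% of high pigment cells, and kept. Ratios and intervals were tested on Poisson counts simulated from the library means, the model that the intervals assume. The simulation held no added spread between cells or libraries, so it cannot show how the intervals cover such spread. Coding lengths and sequences come from GENCODE vM21 (GRCm38), 1 transcript per gene by annotation rank, and starts from RefSeq. Other versions were Python 3.11.15, numpy 2.4.6, scipy 1.17.1 and pandas 2.3.3.

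Members, gene lists and naming rules were chosen with earlier results of these data known. The rule names members past that limit, the 8 largest and 8 smallest ratios, stalk and 5S particle genes, Rpsa, Rps6, Rps27a, paralogue pairs, 4 genes at each end for phases, the 4 widest over clusters, 3 at each end of other lists and the 5 most correlated genes. A few genes so picked are not reported here. Length groups, bins of depth, promoter windows and copies were chosen after seeing the data. Alternatives covered the denominator, depth, cell selection, doublets, phase and size limit.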

Additional observations from a re-analysis of the deposited data

Results flagged for a closer look

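Signal outside the main measurement was found in low pigment barcodes that the authors' cell table leaves out. In 499 barcodes with under 7500 UMIs and under 10% mitochondrial UMIs, the ribosomal protein genes made up 24.5% of non-mitochondrial UMIs, above the 22.01% in the table's low pigment cells. In 434 barcodes with over 50% mitochondrial UMIs and a median of 902.5 UMIs the value was 31.1%. In the high pigment library the same classes held 541 barcodes with 22.2% and 5 barcodes with 22.8%, beside 22.5% in the table's cells. Such barcodes can be damaged cells or empty droplets, which was not tested.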

How the results depend on the processing

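No paired analysis was possible because each group is 1 library, and no replicate could be left out. Spearman's correlation with coding length was -0.75 to -0.78 in the 8 alternatives that change the cells or their weights, while the others leave the order of ratios as it is by construction. Over all alternatives the median log2 ratio was 0.10 to 0.28 in the shortest and -0.25 to -0.08 in the longest genes. Scaled to the median gene, 12 members were higher and 2 lower, the median was 0.11 and the share ratio 1.09, so each ratio shifted by the 0.08 (log2) that the median gene lay below 1. Among cells of 10000 to 15000 UMIs, 2 were higher and 10 lower, with a median of -0.081 (all genes -0.01, from -0.08 in all cells) and a share ratio of 0.964. In S cells 2 were higher, the median was -0.023 and the share ratio 0.992. In G2M cells 2 were lower, the median was 0.069 and the share ratio 1.06, and in G1 cells the share ratio was 1.05. Thinning gave a median of -0.0039 and a share ratio of 1.01, and the mean over cells -0.0026 and 1.01. The share ratio was 1.04 with the members left out of the denominator, 1.02 without mitochondrial genes and 1.03 with all barcodes under 10% mitochondrial. At 1.5-fold 0 were higher and 0 lower. At 1.1-fold, from G1 to S, 1 member was lower in the low and 18 in the high pigment library, and from G1 to G2M 6 and 9. Averaged over cells, the share was 21.3%, 20.98% and 20.3% in clusters 0, 1 and 2. In the library that held most of each cluster it was 21.8%, 21.1%, 20.4% and 20.4% in clusters 0 to 3. Apart from the cell selections and the scaling, which change what is counted, the causes were not tested. Of 308 values of 28 named members under 11 alternatives, 138 moved by less than the counting interval and 170 by more, and 0 called members changed sign, while Rpl11, Rpl22, Rpl36a, Rplp1 and Rps27a, 5 members near a ratio of 1, did in at least 1. Rpl3, Rpl5, Rpl38 and Rps27l, 4 of the 11 called, stayed past 25% in all of these 11. The median counting interval reached 0.01 (log2) to either side, but ratios moved by more among cells of 10000 to 15000 UMIs. They went from 0.40 to 0.26 for Rps29, from 0.35 to 0.19 for Rps21 and from -0.24 to -0.37 for Rpl7a. The mix of phases in that window also differed between the libraries. The number of libraries is the other limit.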
